A study of Mus musculus with 14 samples.

Results

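RARα binding under 9-cis retinoic acid was compared with binding under the DMSO vehicle through the peak list deposited for each treatment. A member is a peak of either list, and it was counted as shared when it overlapped a peak of the other list by at least 1 bp. The 9-cis retinoic acid list held 200 peaks and the DMSO list 286, out of 1529 peaks in the 5 lists of the series. The lists come from CUT&RUN, in which a nuclease is brought to the antibody and frees the DNA fragments beside it, here with an antibody to retinoic acid receptor alpha. The cells were 266-6, a mouse pancreatic acinar line derived from a tumour, so each treatment is the same line and no animal is sampled. All cells spent 24 h in stripped DMEM and 24 h with 9-cis retinoic acid or with DMSO, whose libraries the labels name No_Ligand. The labels state no dose. They name 3 samples for each of these treatments and the same list for all 3. Whether that list comes from one replicate, a pool or a consensus is not stated, and the number 1 in its peak names could mean the first replicate. Each list therefore counts as 1 sample, nothing measures replicate spread and no test between treatments was made. The other lists, used below only to ask whether a place was also listed there, are from cells given AM580 (an RARα agonist, 2 samples), CD3254 (an RXR agonist, 3 samples) and what the labels call AM+CD (3 samples). Intervals below are 95% Wilson intervals and cover counting error only.

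RARα and its partner, a retinoid X receptor (RXR), sit together on DNA at retinoic acid response elements, which are direct repeats of a short half-site. Without ligand the pair holds corepressors at many of its sites, and ligand exchanges these for coactivators. 9-cis retinoic acid binds both partners, unlike all-trans retinoic acid, which binds RAR. Rarb, which encodes RARβ, and Cyp26a1, which encodes the enzyme that degrades retinoic acid, are textbook targets with a response element close to their start sites.

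The DNA at the start sites bears on what the lists hold, so 4 stretches are printed here from RefSeq (GRCm38.p6, the assembly of mm10), 5′ to 3′ on the gene's strand. The first pair are those RefSeq promoter windows, each 250 bases before to 50 after a start, that a peak of either list touched among the windows searched, those of chromosomes 1 to 17, 19, X and Y. They belong to Gm40237 (chr4:118547156-118547455, plus strand), in both lists, and Gm40369 (chr6:47652651-47652950, plus strand), in the DMSO list, the first a long noncoding RNA gene in the RefSeq table and the second a predicted protein-coding one. In Gm40237 capitals mark matches to the half-sites AGGTCA or AGTTCA on either strand. Gm40369 holds 0 such matches. The other two are parts of the promoters of Rarb (chr14:16575473-16575569, minus strand) and Cyp26a1 (chr19:37697736-37697832, plus strand), where capitals mark a direct repeat with a 5-base spacer on either strand, each half-site being one of those named or the near variants GGGTCA and GGTTCA.
Gm40237: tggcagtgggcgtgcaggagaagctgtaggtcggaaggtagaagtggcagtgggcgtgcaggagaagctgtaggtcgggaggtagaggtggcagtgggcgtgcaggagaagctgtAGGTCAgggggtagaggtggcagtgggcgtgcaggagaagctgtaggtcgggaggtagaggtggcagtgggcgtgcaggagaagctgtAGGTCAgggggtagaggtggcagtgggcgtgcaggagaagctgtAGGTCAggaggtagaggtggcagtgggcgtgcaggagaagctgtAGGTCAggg
Gm40369: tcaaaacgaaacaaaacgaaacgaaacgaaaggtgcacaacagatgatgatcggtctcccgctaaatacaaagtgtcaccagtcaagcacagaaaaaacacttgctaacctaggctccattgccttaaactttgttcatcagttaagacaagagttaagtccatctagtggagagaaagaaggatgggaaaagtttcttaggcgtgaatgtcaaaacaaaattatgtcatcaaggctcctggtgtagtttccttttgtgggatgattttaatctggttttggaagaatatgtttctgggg
Rarb: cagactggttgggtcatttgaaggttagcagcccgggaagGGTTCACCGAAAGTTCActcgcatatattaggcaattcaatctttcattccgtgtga
Cyp26a1: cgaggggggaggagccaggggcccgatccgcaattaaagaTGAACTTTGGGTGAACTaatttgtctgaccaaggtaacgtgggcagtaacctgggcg

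Of these windows, that of Gm40237 held a peak in both lists. The 9-cis retinoic acid peak (chromosome 4, 118547248 to 118548672, fold 12.2, −log10 q 54.6) covered 208 bases of the printed window, and its summit lay 577 bp after the start. The DMSO peak there (118547225 to 118548656, fold 15.8, −log10 q 127) covered 231 bases, with its summit 572 bp after the start. Fold is the authors' enrichment of a summit over its local background and, like −log10 q, belongs to its own list. The window is a tandem repeat: shifted against itself by 44 bases it matched at 246 of 256 positions (96.1%), and the 4 marked half-sites stand 88, 44 and 44 bases apart. At least 4 such matches occur in 38 of 32851 RefSeq promoters (0.116%), and at least 1 in 9104 (27.7%). A match describes the letters only and is not a binding site. The peak was also present in the AM580, CD3254 and AM+CD lists.

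No peak of either list touched the Rarb or Cyp26a1 promoter. The printed repeat of Rarb ends 37 bases before the listed start and that of Cyp26a1 ends 16 bases before it. Such a repeat, with these 4 half-sites and a 5-base spacer, occurs in 32 of 32851 promoters (0.0974%), 73 promoters hold one with a 1-base spacer (0.222%) and 88 one with a 2-base spacer (0.268%). Of these promoters 0 had a peak within 50 kb in either list, against 0.478% of all promoters for 9-cis retinoic acid and 0.691% for DMSO. Peaks near promoters were so few that 0 among this many cannot be told apart from these background shares. Among 28 retinoic acid receptor target genes fixed as a list, 17 had a promoter in the RefSeq table, and Rarb and Cyp26a1 were those with a repeat of the 5-base kind.

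Rarb was the one gene of that target list with a peak near it, and only in the 9-cis retinoic acid list. Its peak (chromosome 14, 16859535 to 16859838) had fold 6.61 and −log10 q 5.39, rested on a summit pileup of 10 fragments and ranked 173 of 200 by −log10 q. The summit lay 284 kb upstream of the start listed for Rarb, inside a gene span of 651 kb that runs from 16430839 to 17082331. The nearest DMSO peak was 2556 kb away, in the high-signal repeat of chromosome 14. The DMSO peaks that flank this place are 2 numbers short of consecutive, and what the missing numbers were is not known. The CD3254, AM580 and AM+CD lists had no peak here.

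**Figure D1:**
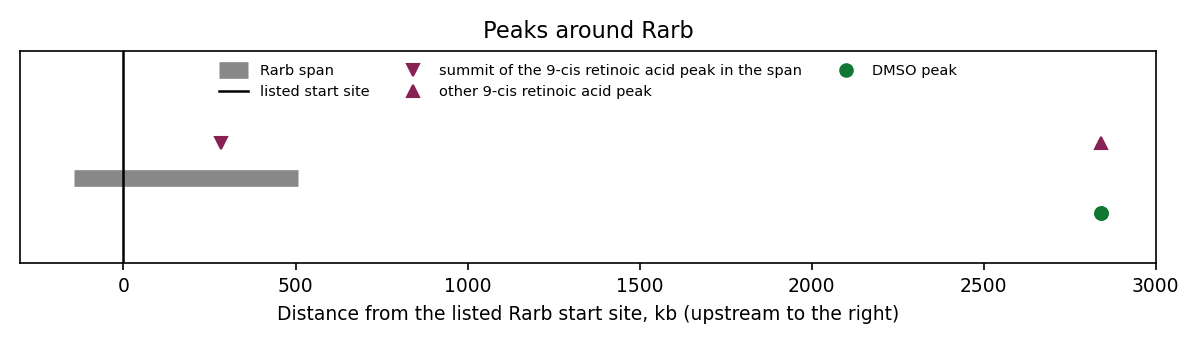
Position of peaks around Rarb, in kb from the start site listed by RefSeq, with upstream to the right; the grey bar is the gene span of 651 kb, the downward triangle the 9-cis retinoic acid summit at 284 kb, and the other markers the next peaks of each list. No DMSO peak is drawn between the gene and the repeat near 2840 kb.

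Other genes of retinoid and RXR signalling were not near a peak. Within 50 kb of 28 target genes there was 1 gene with a 9-cis retinoic acid peak and 0 with a DMSO peak, against 0.557% and 0.808% of all 21900 protein-coding genes. These shares cover genes of all lengths, and a span as long as that of Rarb (651 kb) gives a peak more room to fall in. The same Rarb peak gave 1 of 20 genes of nuclear receptors and co-regulators (Rara, Rxra, Ncor1, Ncoa1 and others) with 9-cis retinoic acid and 0 of 20 with DMSO. Of 20 genes of retinoid metabolism and transport, which include Rdh10, Aldh1a2 and Lrat, 0 had a peak in either list. Of 18 targets of LXR and PPAR, which also pair with RXR, 0 did. The lists of acinar genes (25 matched, among them Ptf1a, Cpa1 and Cel) and of duct, islet and stellate genes (16) also gave 0 in both lists. With the distance widened to 100 kb, Fgf8, a growth factor gene, joined the targets in both lists (2 of 28 and 1 of 28), against 1.01% and 1.4% of all protein-coding genes. A count of 0 allows a share of up to 10.7% of 28 genes and 12% of 25, so these lists cannot show a difference between treatments. Peak positions do not measure expression, so the labelled cell type could not be checked.

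The peaks of the 9-cis retinoic acid list were mostly those of the vehicle. A DMSO peak was found at 173 of the 200 (86.5%, 81.1 to 90.6), which leaves 27 (13.5%). In the other direction 172 of 286 DMSO peaks met a 9-cis retinoic acid peak (60.1%, 54.4 to 65.6), and 114 (39.9%) did not. The same places were marked closely in both lists. Over the 174 overlapping pairs the summits lay a median of 17 bp apart, 126 pairs within 50 bp, and the median overlap was 474 bp. The DMSO peak was the wider one in 147 pairs and the 9-cis retinoic acid peak in 26, with median widths of 565 and 490.5 bp.

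The 1 bp rule cut through no near misses in the 9-cis retinoic acid list. The smallest overlap counted was 104 bp, at a peak in the Speer4c cluster of chromosome 5 (15681019 to 15681324). The next was 174 bp near Gm45988 on chromosome 7 (64073471 to 64074103). The closest 9-cis retinoic acid peak outside the rule, the one in Nek1, lay 316499 bp from a DMSO peak. In the DMSO list 13 of the 114 unmatched peaks stood within 1000 bp of a 9-cis retinoic acid peak, the closest at 383 bp on a contig and 389 bp at the start of chromosome 17.

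The unmatched peaks stood in different places of the 2 rankings. With each list cut into 4 by its −log10 q, all 50 of the first and all 50 of the second quartile of 9-cis retinoic acid peaks met DMSO, 49 of 50 did in the third and 24 of 50 in the last (48.0%, 34.8 to 61.5). The 27 unmatched peaks had folds of 4.50 to 8.66 (median 6.48) and −log10 q of 1.60 to 9.57 (median 4.99). The 173 matched peaks had folds of 2.10 to 32.1 (median 8.68) and −log10 q of 3.5 to 35419.5 (median 39.0). The ranges overlap, and all 145 peaks with −log10 q of at least 10 were matched. Summit pileups of the 27 were 6 to 13 fragments (median 9), against 9 to 45851 (median 64) in the matched peaks. Of the 27, 10 stood on the lowest background of the list, 0.544 fragments per base, as did no matched peak.

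DMSO peaks without a counterpart reached the top of their list. They numbered 11 of 72 in the first quartile, 14 of 71 in the second, 36 of 72 in the third and 53 of 71 in the last. The share that met 9-cis retinoic acid thus went from 84.7% (74.7 to 91.2) in the first quartile to 25.4% (16.7 to 36.6) in the last. Their −log10 q ran from 1.87 to 8532 (median 19.3) and that of the matched DMSO peaks from 6.56 to 47069.4 (median 84.9). Their summit pileups were 9 to 11031 fragments (median 44), against 14 to 57247 (median 132). Both lists thus thinned out toward low −log10 q, but places in the first or second quartile without a partner were found in the DMSO list alone. Widths differed too: unmatched DMSO peaks had a median of 341.5 bp (lowest 254) and matched ones 559 bp (lowest 279). The narrowest peak of the 9-cis retinoic acid list was 304 bp. Whether places narrower than this could have been listed with 9-cis retinoic acid was not tested.

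**Figure D2:**
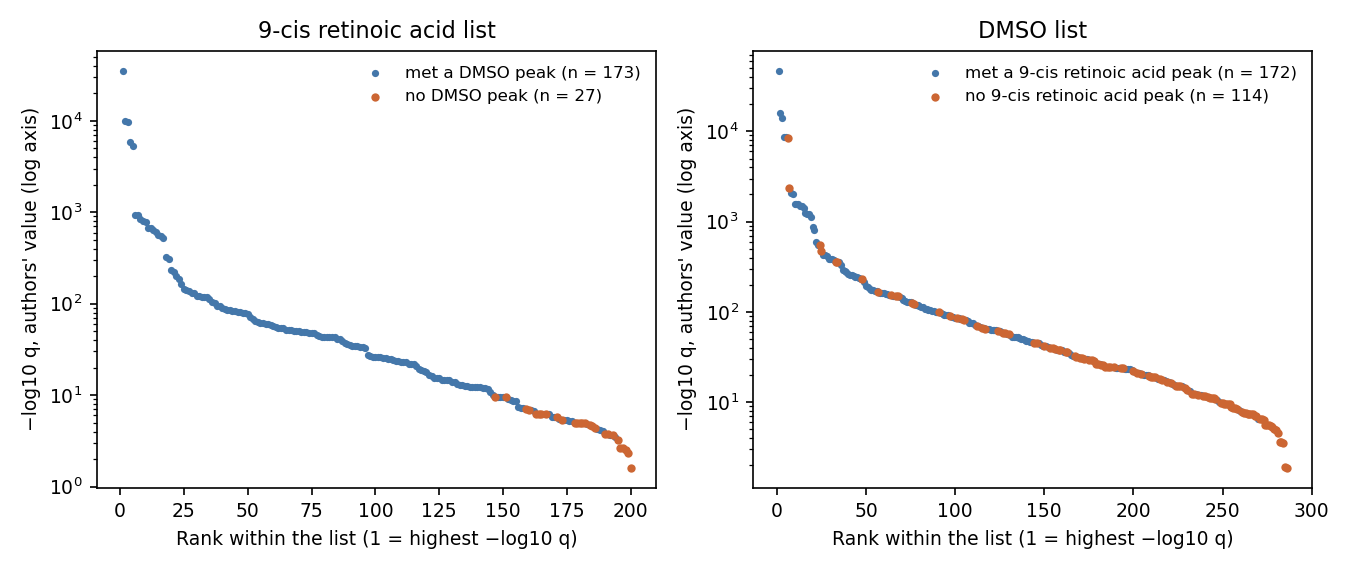
Each point is a peak, placed by its rank within its list (x) and its −log10 q (y, log axis), blue where it met the other list and orange where it did not. Orange points lie at rank 147 and beyond in the 9-cis retinoic acid list and begin at rank 6 in the DMSO list.

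**Figure D3:**
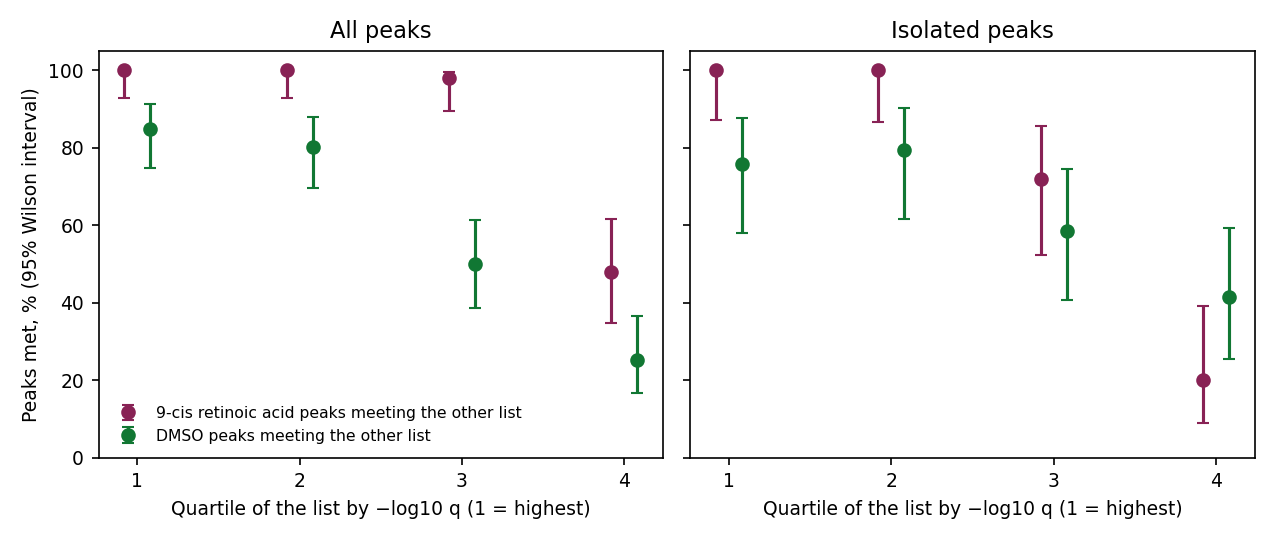
Share of peaks that met the other list, in percent, by quartile of each list's own −log10 q, with 95% Wilson intervals; the left panel has all peaks and the right panel isolated ones. Among all peaks the share is 48.0% in the last 9-cis retinoic acid quartile and 25.4% in the last DMSO quartile.

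The 9-cis retinoic acid call was the shallower. Its background coverage, recovered from the deposited fold and −log10 p, was 0.544 fragments per base against 1.32 with DMSO (41.0% of it). With each DMSO pileup and background scaled to the lower coverage, 90 of the 114 unmatched DMSO peaks, and 170 of the 172 matched ones, would keep a −log10 p above the smallest in the 9-cis retinoic acid list. In that reduced DMSO list 170 of 260 peaks met a 9-cis retinoic acid peak (65.4%, 59.4 to 70.9). The scaling took no account of width, whose lowest value was 304 bp with 9-cis retinoic acid and 254 bp with DMSO. It also used the same factor everywhere, while backgrounds in some repeats differed less. They were 3043 and 3362 fragments per base at the chromosome 2 satellite peak of both lists, and 868 and 1194 at that of chromosome 14. The number of peaks missed through depth thus cannot be read from it. Both lists are also incomplete: their peak numbers run to 265 and 453, so at least 65 and 167 peaks had been removed after the call. Between the DMSO peaks on either side no number was missing at 5 of the 27 places, at least 1 was missing at 19, and 3 lay beyond the outermost DMSO peak of their chromosome. Of the 114 unmatched DMSO places, 43 had no 9-cis retinoic acid number missing around them, 36 had at least 1 missing and 35 were not flanked on both sides. A place with a number missing, or not flanked, may have held a peak that was removed from the other list.

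All 27 peaks found with 9-cis retinoic acid and not with DMSO were isolated positions. Isolated means outside 7 high-signal repeat regions and the unplaced contigs, and in no cluster, which is a run of 3 or more regions whose neighbours lie no more than 100 kb apart. Among isolated 9-cis retinoic acid peaks 27 of 101 were unmatched (26.7%, 19.1 to 36.1), above the 13.5% of the whole list, since 0 of the 99 peaks in repeats, contigs and clusters were, which allows a share of up to 3.03%. In the DMSO list the unmatched were 42 of 116 isolated peaks (36.2%, 28.0 to 45.3), near the 39.9% of the whole list. They were also 40 of 72 in clusters (55.6%, 44.1 to 66.5), 17 of 64 on contigs (26.6%, 17.3 to 38.5) and 15 of 34 in high-signal regions (44.1%, 28.9 to 60.5). Isolated peaks present in both lists numbered 74 in each.

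**Figure D4:**
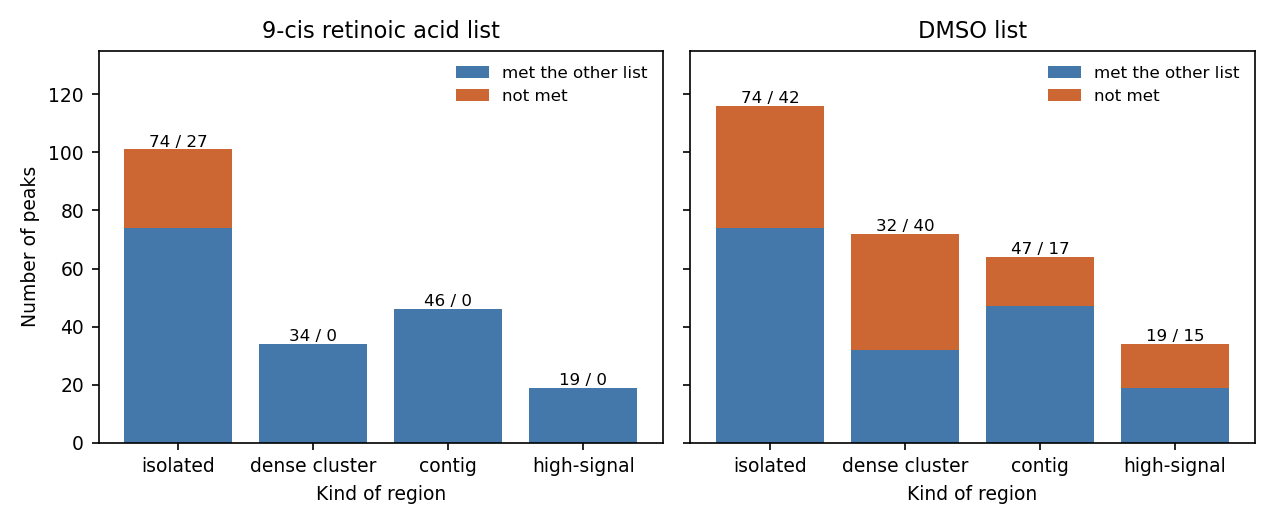
Number of peaks by kind of region in each list, split into those that met the other list (blue) and those that did not (orange), with both counts above each bar. The 27 unmatched 9-cis retinoic acid peaks are all isolated, while the 114 unmatched DMSO peaks fall in all 4 kinds.

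Of the 27, 7 lay in the span of a protein-coding gene (25.9%, 13.2 to 44.7), against 26 of the 74 matched isolated peaks (35.1%, 25.2 to 46.5), and these intervals overlap. Beside Rarb the spans were those of a cytoskeletal regulator, a pseudokinase, a kinase, a receptor subunit and transporters. Clasp2, whose product stabilises microtubule plus ends, held a peak on chromosome 9 (113756388 to 113756890) with fold 7.42 and −log10 q 6.96, 15342 bp from a start site. Peak1, a pseudokinase of the cytoskeleton, held one on the same chromosome (56223572 to 56224050) with fold 7.07 and −log10 q 6.17. Nek1, a kinase of cilia and DNA repair, held one on chromosome 8 (61001548 to 61001886) with fold 6.48 and −log10 q 4.99. The peak in Slc35f1, of a transporter family (chromosome 10, 52766648 to 52766998), had the same values, since both rested on 9 fragments over the lowest background. Slc22a27, an organic anion transporter gene (chromosome 19, 7943696 to 7944050), stood at fold 6.16. Gabrb1, a GABA-A receptor subunit gene (chromosome 5, 71984506 to 71984821), stood at fold 5.18 on 7 fragments and ranked 197 of 200.

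In or within 50 kb of a protein-coding gene lay 15 of the 27. For matched isolated peaks this was 51 of 74, and for isolated unmatched DMSO peaks 34 of 42. Beyond those in spans, a further 8 of the 27 lay within 50 kb of a protein-coding gene. The one of highest −log10 q (7.08, fold 7.49) was 11964 bp from Gpbp1, a gene for a protein that binds GC-rich promoters (chromosome 13, 111502092 to 111502404). Next came one 35856 bp from Satb1, a chromatin organiser (chromosome 17, 51869146 to 51869555, fold 7.13), and one 32543 bp from Hsf2, a heat shock transcription factor gene (chromosome 10, 57450837 to 57451223, fold 6.81). Others stood 13085 bp from Fbxw24, an F-box gene (chromosome 9, 109587695 to 109588031, fold 6.48), and 30268 bp from the olfactory receptor gene Olfr724 (chromosome 14, 49991364 to 49991815, fold 5.99). The last were 45547 bp from Col11a1, a fibrillar collagen gene (chromosome 3, 113984547 to 113984932, fold 6.25), 13904 bp from Ang4, a secreted ribonuclease gene (chromosome 14, 51749603 to 51749988, fold 5.95), and 15561 bp from the vomeronasal receptor gene Vmn2r121 (chromosome X, 124111381 to 124111778, fold 5.09).

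The remaining 12 had no protein-coding gene within 50 kb, with distances from 67316 bp (Pls3, a gene for an actin-bundling protein) to 1454597 bp (Mrpl39, of the mitochondrial ribosome). They include both peaks of highest −log10 q among the 27, each on 13 fragments: one on chromosome X (75942498 to 75942832, fold 8.66, −log10 q 9.57) and one on chromosome 16 (86077482 to 86077816, fold 8.58, −log10 q 9.43). Chromosome 16 held 2 more, at 83263301 to 83263684 (fold 6.80) and 61883514 to 61883916 (fold 4.95). Chromosome 12 held 2, at 62976347 to 62976660 (fold 5.83) and 68073783 to 68074170 (fold 5.73). The others were on chromosome 3 (16997773 to 16998299, fold 7.13), chromosome 18 (87957344 to 87957761, 6.48), chromosome X (88676120 to 88676452, 5.83), chromosome 17 (41982942 to 41983245, 5.46), chromosome 14 (97145307 to 97145612, 5.18) and chromosome 4 (71293288 to 71293619, 4.50). No DMSO number was missing around the peak of chromosome 16 at 86077482, those at 83263301 and 61883514, the chromosome 12 peak at 68073783 and the Gpbp1 peak.

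The unmatched peaks of the 2 lists differed in how often the other ligands showed them. Of the 27, 24 (88.9%, 71.9 to 96.1) were in none of the AM580, CD3254 and AM+CD lists, and 0 were in the CD3254 list, which allows a share of up to 11.1%. The exceptions were Clasp2 and Satb1, with an AM580 peak, and Peak1, with AM580 and AM+CD peaks. Of the 114 unmatched DMSO peaks, 1 (0.877%, 0.155 to 4.80) was in none of these lists, a cluster peak near Gm10354 on chromosome 5 (14959417 to 14959726, fold 4.51). In the CD3254 list were 112 of the 114 (98.2%, 93.8 to 99.5), in AM580 84 (73.7%) and in AM+CD 43 (37.7%). All 3 lists held 36 of them, 16 at isolated positions. Matched peaks were in all 3 in 162 of 173 cases. The CD3254 call was the deepest, at 2.36 fragments per base, and AM+CD (2.13) kept 32.4% of its peak numbers; their part in these counts was not tested.

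**Figure D5:**
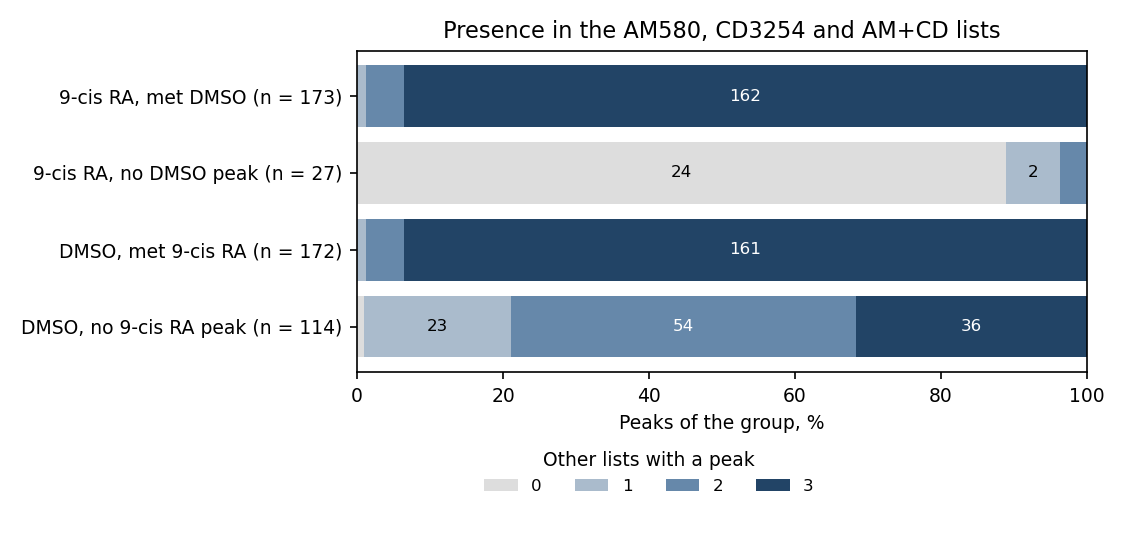
Share of each group of peaks, in percent, found in 0, 1, 2 or 3 of the AM580, CD3254 and AM+CD lists, with counts inside the larger segments. Of the 27 peaks found with 9-cis retinoic acid and not DMSO 24 are in none, while 113 of the 114 DMSO peaks without 9-cis retinoic acid are in at least 1.

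Isolated DMSO peaks without a 9-cis retinoic acid peak were led by a place on chromosome 12 (3109872 to 3110184) with fold 38.9, −log10 q 8532 and a summit pileup of 7301 fragments, 137244 bp from Rab10, a vesicle traffic gene. The 9-cis retinoic acid list had its nearest peak 59866163 bp away, the unmatched one at 62976347. The local background of this DMSO peak was 187 fragments per base, against 1.32 at the lowest of the list. It was close to the 191 of the nuclear copy of mitochondrial DNA on chromosome 6, which counts as a high-signal region. The pileups of these places were also close (7301 and 7474). No control is named, and whether the background is separate from the peak's own fragments at the chromosome 12 place was not tested. The place is flanked by no 9-cis retinoic acid peak on one side, and 2 numbers are missing between that list's last peak of chromosome 11 and its first of chromosome 12. One on chromosome X (143483005 to 143483285, fold 32.7), 35081 bp from the kinase gene Pak3, and one on chromosome 9 (24542015 to 24542293, fold 30.2), 14754 bp from Dpy19l2, a gene of sperm head formation, came next. Another stood 7434 bp from Tmem196 on chromosome 12 (120028676 to 120029004, fold 27.2). Cdk5rap2, a centrosome gene, held one in its span (chromosome 4, 70378121 to 70378390, fold 26.3, −log10 q 149). These places ranked 6, 33, 48, 67 and 68 of 286. In the same order they were 313, 281, 279, 329 and 270 bp wide, and the narrowest 9-cis retinoic acid peak was 304 bp.

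Others of the 15 highest lay 9382 bp from Fam107a, an actin-associated protein gene (chromosome 14, 8286634 to 8286888, fold 23.5), and in the noncoding gene Gm36684, 48287 bp from Tcp10c (chromosome 17, 13305957 to 13306285, fold 23.2). Sos2, a Ras exchange factor gene, held one in its span (chromosome 12, 69654064 to 69654343, fold 20.5) and a weaker one beyond the 15 (69608361 to 69608803, fold 11.9985). Both were in the CD3254 and AM+CD lists. The noncoding gene Gm32085, 12131 bp from Pigk, which anchors proteins to GPI, held one 3723 bp from a start site (chromosome 3, 152701655 to 152701954, fold 18.98). Further spans were those of Cntnap5c, a contactin-associated gene (chromosome 17, 57855947 to 57856328, fold 18.8), Gphn, the gephyrin gene of inhibitory synapses (chromosome 12, 78350869 to 78351230, 17.7), Taf4b, a TFIID subunit gene (chromosome 18, 14913697 to 14914148, 16.4), and Spag17, of the sperm flagellum (chromosome 3, 99981124 to 99981421, 15.4). The others of the 15 had no protein-coding gene within 50 kb and stood on chromosome 13 (110744103 to 110744555, fold 19.1) and chromosome X (170880960 to 170881281, fold 21.2). No 9-cis retinoic acid number was missing around those in Cdk5rap2, Gm36684, Sos2, Taf4b and Spag17 and the chromosome 13 peak. The peaks near Fam107a and Pigk were 255 and 300 bp wide, and those of the 15 in Sos2 and Spag17 280 and 298 bp. All of these are narrower than any 9-cis retinoic acid peak (304 bp or more). The rest of the 15 described here were 322 bp or wider.

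The mitochondrial genome and several repeat clusters had peaks in the DMSO list and none in the 9-cis retinoic acid list. The mitochondrial genome had 6 DMSO peaks, with folds of 1.62 to 3.28 and −log10 q of 1.91 to 36.1. It had 0 of the 200 peaks with 9-cis retinoic acid, which allows a share of up to 1.5%. Only the DMSO peak of highest fold there was also in the AM+CD list. A number is missing between the last chromosome 9 peak of the 9-cis retinoic acid list and its next peak. In the DMSO numbering the mitochondrial peaks stand at this point, so a peak may have been removed. Of 20 DMSO peaks in the satellite block at the start of chromosome 9, 13 were matched and 7 were not. Of 20 clusters with a DMSO peak, 7 had no 9-cis retinoic acid peak. The cluster of chromosome 5 from 14914439 to 15054880, around Speer4e of a duplicated testis-expressed family, had 6 DMSO peaks and 0 with 9-cis retinoic acid, whose list lacks 3 numbers between its peaks on either side. That of chromosome 8 from 20275231 to 20682577, around Gm15319, had 7 and 2. The cluster beside Sfi1, a centriole gene (chromosome 11, 3100379 to 3199462), had 5 and 2. In a list of duplicated families 2 of 15 genes (Sfi1 and Speer4c) were within 50 kb of a 9-cis retinoic acid peak and 4 (with Speer4d and Speer4e) of a DMSO peak. Near all protein-coding genes the shares were 0.557% and 0.808%, but the list was written with these clusters known and its counts support nothing. Reads from such copies can map to several places, and no label says how these were counted. Clusters at the end of chromosome 2 (181917359 to 182013201, 5 of 6 DMSO peaks matched), near Tmem267 on chromosome 13 (4 of 4) and on contig JH584304 (18 of 19) were nearly the same in both lists.

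The isolated places held in common spread over both lists, with a median −log10 q of 34.2 for 9-cis retinoic acid. The one of highest −log10 q (550) was in Mdga2, a synaptic adhesion gene (chromosome 12, 67059172 to 67059893, fold 22.4; DMSO 67059169 to 67059899, fold 26.4), with summits 1 bp apart. It was followed by the span of Cldn34d, a claudin gene (chromosome X, 76598576 to 76599185, fold 23.3; DMSO fold 27.4), and a place 21081 bp from Ly6c2, a lymphocyte antigen gene (chromosome 15, 75085484 to 75087080, 9.92; DMSO 9.31). Kctd16, a GABA-B receptor auxiliary subunit gene, had folds of 21.2 and 24.4 in the 9-cis retinoic acid and the DMSO list (chromosome 18, 40308020 to 40308469). Atrnl1, an attractin-like gene, had 22.2 and 27.1 (chromosome 19, 58113271 to 58113675). Smo, the Hedgehog signal transducer, had 14.1 and 17.6, with both summits on the same base (chromosome 6, 29747892 to 29748672). Aida, an axin-interacting gene, had 19.9 and 20.2, with a start site 2047 bp from the 9-cis retinoic acid summit (chromosome 1, 183299135 to 183299660). These pairs of folds stand against different backgrounds and do not measure a change.

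Others of the 15 highest were in no protein-coding span. They stood 15572 bp from Gtpbp4 (chromosome 13, 9011688 to 9012211), 8361 bp from P4ha2, a collagen prolyl hydroxylase gene (chromosome 11, 54140029 to 54140809), and 60863 bp from Axin2, a Wnt feedback gene (chromosome 11, 109011646 to 109012172). Their 9-cis retinoic acid folds were 23.1, 14.3 and 18.97. Another lay 34623 bp from Zfp825 in the pseudogene Gm20590 (chromosome 13, 74528635 to 74530757, 7.09), and one 9965 bp from Gm39469 (chromosome 9, 124256375 to 124257919, 9.72) with summits 986 bp apart. The last, 92672 bp from Kcnh5 (chromosome 12, 74803892 to 74804545, 19.1), 391689 bp from Nbea (chromosome 3, 56575437 to 56575811, 20.2) and 115727 bp from Vmn1r238 at the start of chromosome 18 (3004601 to 3006765, 9.07), had no protein-coding gene within 50 kb. Local background of the 15 in the 9-cis retinoic acid list ran from 3.28 fragments per base at Atrnl1 to 25.1 at Mdga2 and 32.1 near Ly6c2. The median background over all matched isolated peaks was 1.76. Summit pileups at these 3 named places were 94, 582 and 327 fragments. The 15 were chosen by −log10 q and no control is named, so a background may include the peak's own fragments. Whether it is separate from the peak's own signal was not tested.

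Few summits of either list lay within 1000 bp of a start site. The share of the genome lying this near was not computed, so depletion or enrichment was not tested. The RefSeq start sites used covered 27025 gene symbols, while the gene reference held 49997 genes, and they included none on chromosome 18. Genes without one could leave summits near a start uncounted and make distances too long. With those on chromosomes 1 to 17, 19 and X, 1 of 148 9-cis retinoic acid summits lay within 1000 bp of one (0.676%, 0.119 to 3.73), at Gm40237. Of DMSO summits 3 of 210 did (1.43%, 0.487 to 4.12), at Gm40237, Gm40369 and Asmt. The Asmt peak, in the gene of the last enzyme of melatonin synthesis (chromosome X, 170673239 to 170673586, fold 15.7), stood 746 bp from a start and had no 9-cis retinoic acid peak. Of the unmatched 9-cis retinoic acid peaks 0 of 26 were within 10 kb of a start, which allows a share of up to 11.5%, and the nearest was the Gpbp1 peak at 12128 bp. Of the unmatched DMSO peaks 18 of 90 were within 10 kb (20%, 13.0 to 29.4), and of all 148 and 210 peaks 20 (13.5%) and 37 (17.6%). The median distance to a start was 56628 bp for the 26 unmatched 9-cis retinoic acid peaks with a start site to measure from and 30357 bp for the unmatched DMSO peaks. All 26 were isolated, while the 90 include peaks in repeats and clusters. Among isolated unmatched DMSO peaks 10 of 41 were within 10 kb (24.4%, 13.8 to 39.3), with a median of 23049 bp. Among isolated matched 9-cis retinoic acid peaks 13 of 70 were (18.6%, 11.2 to 29.2), with a median of 30402.5 bp.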

How the data were processed

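CUT&RUN with an antibody to RARα was run on 266-6 cells, with libraries amplified for 9 cycles per the labels. MACS2 2.2.7.1, Bowtie2 2.5.1, SAMtools 1.18, bedtools, FastQC and build mm10 are named per the submitters' processing notes. Not given in the sources used here are tool order, control, q threshold, treatment of repeated reads, read depth and any pooling of replicates. The deposited lists hold peaks with the authors' fold enrichment (a ratio), −log10 p and −log10 q, and a score of 10 times −log10 q that was not used further. Fold and −log10 q were used only within a list.

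Overlaps, distances and 95% Wilson intervals were computed with Python 3.11.15, pandas 2.3.3 and SciPy 1.17.1. Pileup and background at a summit were recovered from fold, taken as (pileup + 1) / (background + 1), and the Poisson tail of −log10 p. All 200 and 286 summits were met within a relative 0.0002. As a measure of depth, each list's smallest background was taken (10 and 12 peaks lay within 0.001 of it). Overlap calling and recovery were tested on simulated data. Genes (49997, of which 21900 are protein coding) and 32851 promoters came from RefSeq. Exons were not told apart. Start-site counts cover chromosomes 1 to 17, 19 and X, leaving out peaks on chromosomes 18 and Y, the mitochondrial genome and contigs. High-signal regions were listed by hand, and clusters came from all 5 lists (551 union regions). The members, the 7 gene lists and the rules were chosen with earlier results of these data known. Named were all unmatched 9-cis retinoic acid peaks, the 15 best isolated peaks of the other groups by −log10 q, the extremes of the overlap rule, list genes and promoters with a peak.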

Additional observations from a re-analysis of the deposited data

How the results depend on the processing

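The share of 9-cis retinoic acid peaks that met DMSO stayed within its interval when 50% of the shorter peak had to be covered, within 500 bp, by summit, with peaks within 1000 bp joined and, added after seeing the data, on chromosomes 1 to 19 and X only (82.4% to 86.5%). It was 94.4% with −log10 q of at least 5 in both lists, 100% (145 of 145) with at least 10 in its own list, 74.0% with both lists trimmed to 200 peaks, and 73.3% without high-signal regions, contigs and clusters. The share of DMSO peaks that met 9-cis retinoic acid stayed within its interval (57.7% to 65.4%) except at 68.0% with −log10 q of at least 10 and 73.0% when trimmed. Trimming shortened only the DMSO list, so the 9-cis retinoic acid share could not rise. Within 10 kb and 50 kb of a start site the shares were 13.5% and 56.8% for 9-cis retinoic acid and 17.6% and 60.5% for DMSO, as wider windows must give. At 100 kb the gene list counts rose by 1 through Fgf8, 86.1 kb from a peak in each list, and through Speer4d with 9-cis retinoic acid, and no other of these counts changed. No paired analysis was possible because each treatment has a single list. A missing peak means only that none was listed, and pileups of 6 to 13 fragments limit what the 27 can show.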
